A study of Mus musculus with 6 samples.

Results

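The genes of Polycomb repressive complex 2 (PRC2) were read on 6 mouse arrays. They are 10 genes, chosen by name as the core and accessory subunits of the complex, of 18193 genes measured by a probe set annotated to 1 gene symbol. Every probe set annotated to a member was kept, which gave 35 probe sets: 4 for Ezh1, 1 for Ezh2, 2 for Eed, 6 for Suz12, 3 for Jarid2, 6 for Mtf2, 2 for Phf19, 5 for Aebp2, 4 for Rbbp4 and 2 for Rbbp7. Probe sets of a gene read the same RNA and are not independent of each other. The mean of 31 of the 35 lay above an intensity of 56.9, the limit below which the lowest 40% of all probe sets fall (the dim limit). The other 4, which are 2 of Ezh1, 1 of Mtf2 and 1 of Phf19, were dim.

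PRC2 places methyl groups on lysine 27 of histone H3, a mark of silenced developmental genes in embryonic stem cells. Ezh2 or its homologue Ezh1 is the methyltransferase, Eed binds the finished mark and stimulates the enzyme, and Suz12 is the scaffold. One form of the complex carries a Polycomb-like protein such as Mtf2 or Phf19, which bind CpG-rich DNA, and another carries Jarid2 and Aebp2, which can bind the ubiquitin mark that Polycomb repressive complex 1 (PRC1) leaves on histone H2A. Rybp and its homologue Yaf2, the genes manipulated here, are subunits of variant PRC1.

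The cells were embryonic stem cell clones, 3 in number, with a 129/B6 hybrid strain background. Clone 3031 has wild-type Yaf2 (Yaf2wt), and clones 3086 and 3087, labelled as biological duplicates, carry the Yaf2 knockdown (Yaf2kd, also called a mutant in the labels); how Yaf2 was reduced is not stated in the labels. Each clone gave 1 array with 4-hydroxytamoxifen (OHT+, 0.8 µM over 24 hours, given to deplete Rybp) and 1 untreated array (OHT-, Rybp wild type). The groups are thus Yaf2wt OHT+ and Yaf2wt OHT- with 1 array each, and Yaf2kd OHT+ and Yaf2kd OHT- with 2 arrays each. Culture was with leukaemia inhibitory factor, on feeder fibroblasts or on gelatin, without a statement of which applied to each array. Yaf2wt is a single clone, so Yaf2 status and clone cannot be told apart. No vehicle is named for the untreated cells.

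Probe sets of the targeted genes separated the arrays by their labels. Those of Rybp disagreed in direction, so a lower Rybp signal with OHT is not shown by both. Of the probe sets annotated jointly to Rybp and its pseudogene, 1421111_at lay between 54 and 102 on the OHT+ arrays and between 1785 and 2262 on the OHT- arrays, and 1428219_at ran the other way, between 2796 and 3443 against 180 to 336. The brightest Yaf2 probe set lay between 238 and 297 on the Yaf2kd arrays and at 769 and 816 on the Yaf2wt arrays. All 10 embryonic stem cell markers of a fixed list (Pou5f1, Nanog, Sox2 and others) were above the dim limit. Values are linear intensity with a common distribution on every array, and differences are log2.

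Over all probe sets limma called 63 of 45037 (0.14%), 52 of them higher (0.115%) and 11 lower (0.0244%) with OHT, at an adjusted p under 0.05. None of the 35 PRC2 probe sets was among them, and the lowest adjusted p of a member was 0.178. At an unadjusted p under 0.05 there were 13 member probe sets, where 7.99% of all probe sets reached it. All 13 were among the 31 above the dim limit, with 12 higher and 1 lower, against 4.82% and 4.81% of all probe sets above that limit. The 12 were of Suz12, Jarid2, Mtf2 and Aebp2 alone, and probe sets of a gene are not independent. By gene, with the brightest probe set for each, 4 of 10 were higher and 0 lower. Of all genes above that limit 6.03% were higher and 5.85% lower. The clone as a block raised the calls over all probe sets to 101, and still 0 members passed, with a lowest adjusted p of 0.0991. The numbers below are therefore values with their intervals, and no member is said to have changed.

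In direction, the members leaned to higher signal with OHT. Of the 31 probe sets above the dim limit, 18 (58.1%) were higher on the OHT+ array in each of the 3 clones, against a background of 16.5% of all probe sets above that limit, and 4 were lower in each clone (background 18.1%). All 3 OHT+ arrays lay above all 3 OHT- arrays for 4 of the 31 (12.9%, background 6.82%) and below them for 3 (9.68%, background 7.12%), the latter being Ezh2, Eed 1453830_at and Rbbp4 1454791_a_at. Counted by gene, with the brightest probe set standing for each, Suz12, Jarid2, Mtf2, Aebp2 and Eed were higher in each clone, 5 of 10 against 18.2% of genes, and Ezh2 was lower in each. The median of the 10 genes was 0.12 (log2), and that of all genes above the dim limit was -0.0051. The arrays are of bulk RNA, in which fewer cells of a type and less RNA per cell cannot be told apart.

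Markers of feeder fibroblasts moved with the treatment too. The summed intensity of 16 fibroblast markers lay between 2901 and 3916 on the OHT+ arrays and between 2321 and 2871 on the OHT- arrays, a ratio of 1.25 in clone 3031, 1.36 in clone 3086 and 1.37 in clone 3087. Of these 16 markers 12 were higher with OHT, 8 of them in each clone, and 0 passed. By mean 12 of the 16 were above the dim limit, and Lum and Fap were below it on every array. The largest parts of the sum came from Col5a2, Thy1, Loxl1 and Col1a2, with means of 656, 575, 355 and 352. Embryonic stem cell markers leaned the same way: 7 of 10 were higher with OHT in each clone and 2 lower in each, 7 reached an unadjusted p under 0.05 in either direction, 0 passed, and their median was 0.16. Among them were Nanog at 0.42 ± 0.080 (limma adjusted p 0.129) and Fgf4 at 0.36 ± 0.087 (0.277), and on the other side Lin28a at -0.40 ± 0.10 (0.295). Their summed intensity, to which Dppa5a alone gave a mean of 37014, had ratios of 1.04, 1.04 and 1.05 in the same order of clones, and that of 15 proliferation genes 1.02, 1.01 and 1.01. Their part in the PRC2 values was not tested.

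**Figure D1:**
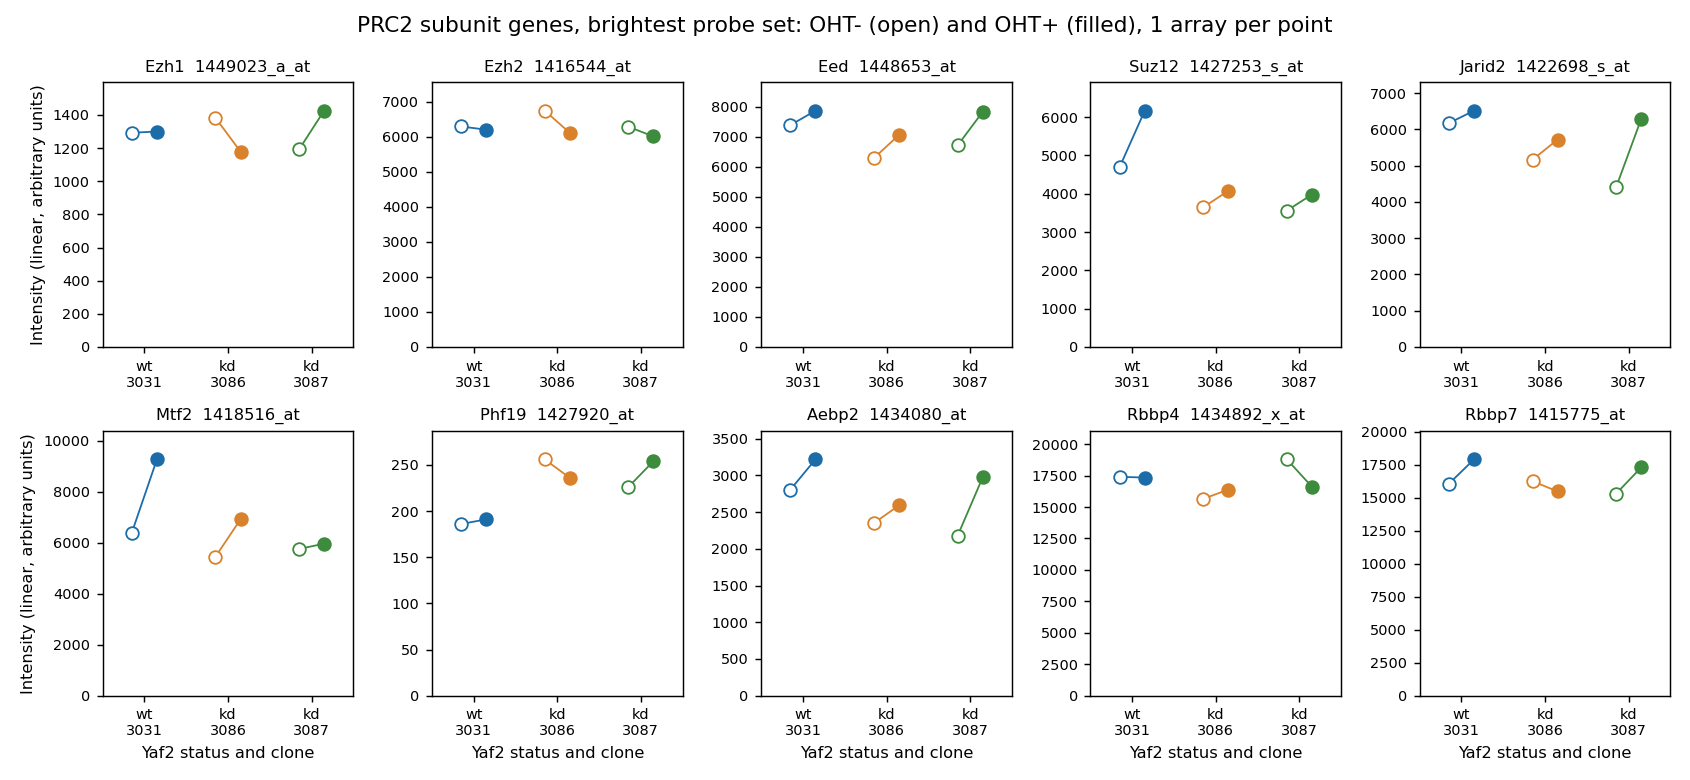
Intensity (linear scale from 0) of the brightest probe set of each PRC2 gene, with 1 point per array, open for OHT- and filled for OHT+, joined within a clone. Suz12 shows the Yaf2wt clone above both Yaf2kd clones (4696 and 6167 against 3559 to 4076), whereas Ezh2 stays between 6010 and 6746 on all 6 arrays.

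Of the catalytic subunits, Ezh2 lay near 0 in both comparisons and Ezh1 had no common direction. Ezh2 has 1 probe set, 1416544_at, which read 6295 without and 6204 with OHT in clone 3031, 6746 and 6114 in clone 3086, and 6289 and 6010 in clone 3087. All 3 OHT+ arrays lay below all 3 OHT- arrays, by a small margin, a pattern shared by 7.12% of probe sets above the dim limit. The limma difference was -0.076 ± 0.077 (log2 ± SE, 95% interval -0.25 to 0.096, adjusted p 0.854). By Yaf2 status, Ezh2 was at 6250 ± 64.8 (SD, n = 2) in Yaf2wt and 6290 ± 325 (n = 4) in Yaf2kd arrays, and the groups overlapped. Both groups mix OHT+ and OHT- arrays, and the Yaf2wt arrays are of clone 3031 alone, so these SDs are no replicate spread.

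Ezh1, the methyltransferase more common in non-dividing cells, was read by 2 probe sets above the dim limit. Its brightest probe set, 1449023_a_at, read 1293 without and 1300 with OHT in clone 3031, 1383 and 1179 in clone 3086, and 1192 and 1426 in clone 3087. A second one, 1418290_a_at, read 352 and 378, 474 and 376, and 412 and 462 in the same order. Both were lower with OHT in clone 3086 and higher in clones 3031 and 3087. Their OHT differences were 0.012 ± 0.11 (95% interval -0.24 to 0.26) and -0.021 ± 0.15, and the Yaf2kd minus Yaf2wt differences -0.007 ± 0.12 and 0.24 ± 0.16. The dim Ezh1 probe sets stayed between 14 and 65.

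Eed, the reader of the finished mark, was read by 1448653_at at 7385 without and 7866 with OHT in clone 3031, 6289 and 7062 in clone 3086, and 6710 and 7826 in clone 3087. It was higher with OHT in each clone, yet the groups overlapped because the untreated Yaf2wt array lay above the treated array of clone 3086. The difference was 0.16 ± 0.081 (95% interval -0.022 to 0.34, adjusted p 0.673). The other Eed probe set, 1453830_at, is far less bright, with a mean of 104, and ran the other way. It read 110 and 100, 109 and 93, and 110 and 106, with no overlap and a difference of -0.14 ± 0.28. Yaf2kd minus Yaf2wt was -0.13 ± 0.086 for the bright one.

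Suz12 and Mtf2 had the most probe sets higher with OHT in every clone, 6 of 6 and 5 of 5 above the dim limit. They are also among the members with the most probe sets, and Jarid2 had 3 of 3. The promoters of Suz12 and Mtf2 are printed with that of Ezh2, whose probe set was lower in every clone. Each is a stretch of 250 bases just before the transcription start in RefSeq (GRCm38.p6), 5′ to 3′, and capitals mark matches to an E2F-type motif (TTCCCGC or TTGGCGC, either strand) or an E-box (CACGTG).
Mtf2 promoter (GRCm38.p6 chr5:108065424-108065673, plus strand): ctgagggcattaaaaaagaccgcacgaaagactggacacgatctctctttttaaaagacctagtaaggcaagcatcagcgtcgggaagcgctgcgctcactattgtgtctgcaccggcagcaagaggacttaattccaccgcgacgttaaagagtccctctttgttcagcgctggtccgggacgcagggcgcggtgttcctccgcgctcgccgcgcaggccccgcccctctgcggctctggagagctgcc
Suz12 promoter (GRCm38.p6 chr11:79992856-79993105, plus strand): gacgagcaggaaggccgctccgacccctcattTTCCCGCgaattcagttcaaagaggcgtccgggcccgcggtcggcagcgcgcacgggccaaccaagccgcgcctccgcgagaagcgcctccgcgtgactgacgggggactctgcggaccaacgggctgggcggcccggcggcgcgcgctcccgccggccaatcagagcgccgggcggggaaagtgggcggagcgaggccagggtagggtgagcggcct
Ezh2 promoter (GRCm38.p6 chr6:47595031-47595280, minus strand): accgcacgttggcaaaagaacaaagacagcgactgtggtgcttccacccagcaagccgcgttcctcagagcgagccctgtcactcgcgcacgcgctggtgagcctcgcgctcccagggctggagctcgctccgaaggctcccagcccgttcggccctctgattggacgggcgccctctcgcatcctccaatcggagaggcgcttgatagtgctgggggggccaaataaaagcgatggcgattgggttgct
The Suz12 stretch holds 1 E2F-type match, which begins 218 bases before the start, and the Mtf2 and Ezh2 stretches hold 0 of either motif. Among 32851 promoter stretches of this length, 5.62% hold an E2F-type match and 6.02% an E-box. Of the 14 stretches listed for the 10 members, those of Suz12, Phf19 and Rbbp4 hold the first and that of Rbbp4 the second. All 3 printed stretches are rich in CpG, with 23 CG pairs for Mtf2, 37 for Suz12 and 23 for Ezh2, where the median is 6. A further Mtf2 start is listed, and the stretch before it (chr5:108077915-108078164, not printed) holds only 2 CG pairs. These are descriptions of letters, and no binding or methylation was measured here.

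Mtf2 is the Polycomb-like protein that recruits PRC2 to CpG islands in embryonic stem cells. Its brightest probe set, 1418516_at, read 6389 without and 9262 with OHT in clone 3031, 5442 and 6914 in clone 3086, and 5750 and 5958 in clone 3087. The OHT+ array was above its partner in every clone, by much in clone 3031 and little in clone 3087, and the groups overlapped. The limma difference was 0.31 ± 0.099 (95% interval 0.089 to 0.53), a 1.24-fold higher signal with an adjusted p of 0.447, and it was 0.20 without clone 3031 or without either of its arrays.

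The other Mtf2 probe sets, singled out after their values were seen, ran alike. With OHT, 1418514_at went from 3123 to 4887 in clone 3031, from 2478 to 3049 in clone 3086 and from 2577 to 3706 in clone 3087. The readings of 1418515_at went from 2714 to 4279, from 2852 to 3187 and from 2192 to 3645. For 1449115_at they went from 2182 to 3343, from 2306 to 2736 and from 1867 to 2562. In the last 2 of these all OHT+ arrays lay above all OHT- arrays, as in 6.82% of probe sets above the dim limit. The differences were 0.49 ± 0.10 for 1418514_at (adjusted p 0.178), 0.52 ± 0.12 for 1418515_at (0.228), 0.44 ± 0.11 for 1449115_at (0.281) and 0.47 ± 0.19 for the less bright 1445151_at (0.592). All 5 Mtf2 probe sets above the dim limit were thus higher with OHT in each clone, between 0.31 and 0.52 on the log2 scale.

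Suz12, the scaffold, had 6 probe sets above the dim limit, all higher with OHT in each clone, with differences from 0.21 to 0.68. The brightest, 1427253_s_at, read 4696 without and 6167 with OHT in clone 3031, 3645 and 4076 in clone 3086, and 3559 and 3979 in clone 3087. Yaf2wt OHT+ stood highest, Yaf2wt OHT- next, then the Yaf2kd OHT+ arrays and last the Yaf2kd OHT- arrays. The steps between the Yaf2kd groups exceeded the gap between their clones, while the Yaf2wt groups have 1 array each and no spread. The OHT difference was 0.24 ± 0.084 (95% interval 0.051 to 0.43, adjusted p 0.509), a 1.18-fold higher signal. That of 1420021_s_at was 0.21 ± 0.089, or 0.12 without clone 3031 or either of its arrays.

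**Figure D2:**
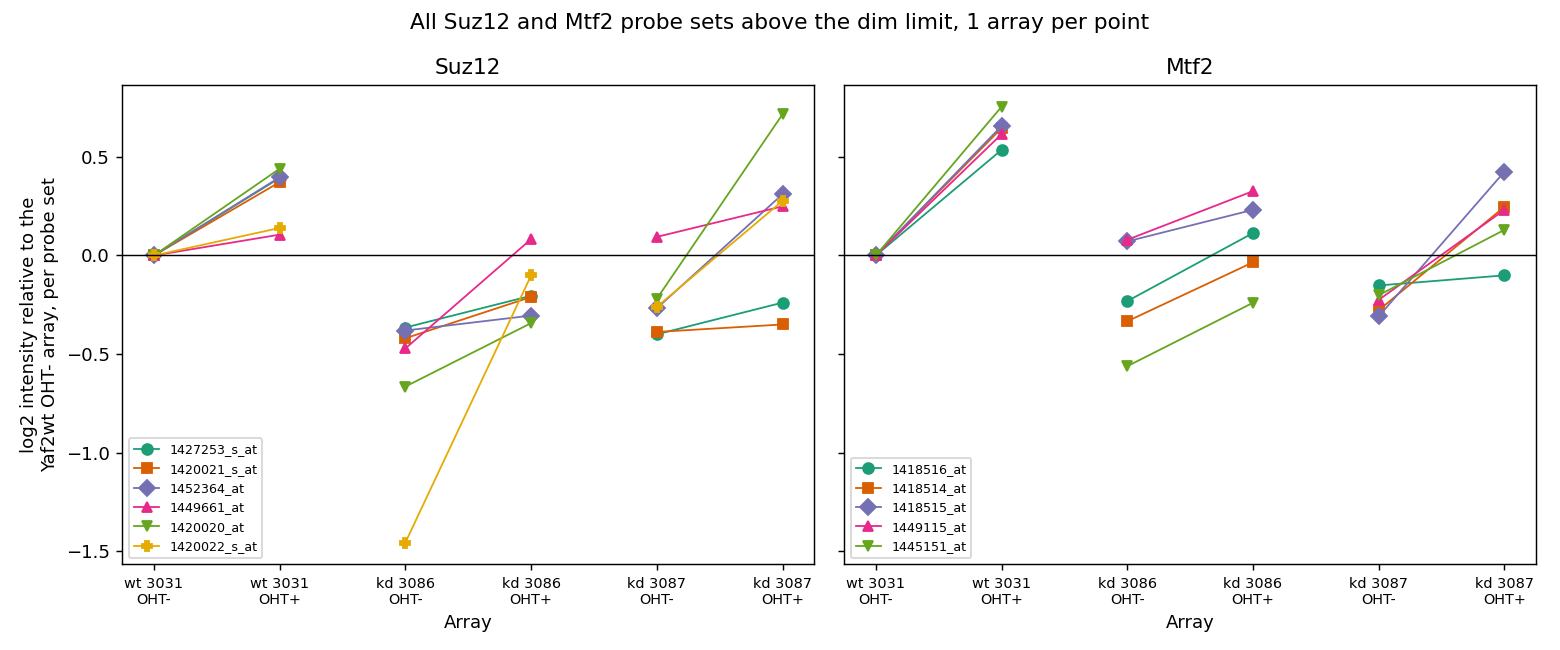
Log2 intensity of every Suz12 (left) and Mtf2 (right) probe set above the dim limit, relative to the same probe set on the Yaf2wt OHT- array, 1 point per array, with the arrays of a clone joined. Every line goes up from OHT- to OHT+. The least bright Suz12 probe set, 1420022_s_at, spreads the most and reads 86 on the OHT- array of clone 3086 against 236 on the Yaf2wt OHT- array.

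These values depended on which clones were in the fit. The fits without clone 3086 or 3087 had 1 residual degree of freedom, against 2 without clone 3031 and 3 with all clones. Their calls and adjusted p are therefore not on an equal footing. Without clone 3086, 4 member probe sets passed, all higher: Mtf2 1418515_at (0.70 ± 0.10, limma adjusted p 0.00204), 1418514_at (0.59, 0.0097) and 1449115_at (0.54, 0.0299), and Suz12 1452364_at (0.49, 0.0442), in a fit that called 205 of all probe sets. Without clone 3087 only Mtf2 1418516_at passed (0.44 ± 0.098, 0.0476), in a fit that called 293. Without clone 3031, which had the larger Mtf2 differences for 4 of its 5 probe sets, 0 passed, the lowest adjusted p of a member was 0.757 and 18 probe sets were called. Over 14 alternatives the adjusted p of 1418514_at ranged from 0.0097 to 0.757, and over 15 that of 1418516_at from 0.0476 to 0.877.

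Phf19, the other Polycomb-like member, did not share the pattern. Its brighter probe set, 1427920_at, read 186 without and 191 with OHT in clone 3031, 256 and 236 in clone 3086, and 226 and 254 in clone 3087, with a difference of 0.031 ± 0.19. Here both Yaf2wt arrays lay below all 4 Yaf2kd arrays, as in 10.5% of probe sets above the dim limit. Yaf2kd minus Yaf2wt was 0.37 ± 0.20 (adjusted p 0.622). The dim Phf19 probe set stayed between 18 and 64.

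Jarid2, a DNA-binding cofactor that helps bring the complex to its targets, had 3 probe sets, all higher with OHT in each clone, from 0.13 to 0.29. The brightest, 1422698_s_at, read 6173 without and 6516 with OHT in clone 3031, 5164 and 5720 in clone 3086, and 4408 and 6289 in clone 3087. Clone 3087 had the widest gap, and the groups overlapped. The difference was 0.25 ± 0.097 (95% interval 0.029 to 0.46, adjusted p 0.571), and it was 0.16 without the OHT- array of clone 3087 and 0.11 without that clone. Another, 1450710_at, was singled out with its values known and read 2589 and 3049, 2569 and 2769, and 2034 and 2909. Its OHT+ arrays all lay above its OHT- arrays (0.29 ± 0.10, adjusted p 0.528). In 1422697_s_at the groups overlapped (0.13 ± 0.089).

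Aebp2, a zinc-finger protein of the same form of the complex, was read by 1434080_at at 2806 without and 3218 with OHT in clone 3031, 2351 and 2592 in clone 3086, and 2177 and 2973 in clone 3087. It was higher with OHT in each clone, with overlapping groups and a difference of 0.26 ± 0.092 (95% interval 0.057 to 0.47, adjusted p 0.505), or 0.17 without clone 3087. The less bright 1437743_at, singled out with its values known, had the larger difference, 0.63 ± 0.16 (adjusted p 0.314). It read 343 and 621, 352 and 510, and 294 and 411, with no overlap. Of the other 3 Aebp2 probe sets, 2 were lower with OHT in clone 3086 and 1 in clone 3031, with differences between 0.087 and 0.26.

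Rbbp4 and Rbbp7 are histone-binding proteins that PRC2 shares with histone deacetylase, nucleosome remodelling and chromatin assembly complexes. The brightest Rbbp4 probe set, 1434892_x_at, has a suffix that marks possible cross-hybridisation, and read 17405 without and 17344 with OHT in clone 3031, 15651 and 16390 in clone 3086, and 18791 and 16611 in clone 3087 (difference -0.039 ± 0.087). Its probe sets disagreed. The readings of 1454875_a_at were 4943 and 4551, 5162 and 4900, and 5515 and 5270, and those of 1454791_a_at 1685 and 1428, 1534 and 1237, and 2627 and 1506, both lower with OHT in each clone, and in the second the groups did not overlap. For 1456260_at they were 472 and 772, 254 and 334, and 483 and 528, higher in each clone. Their differences were -0.087 ± 0.079, -0.45 ± 0.18 and 0.41 ± 0.26, with adjusted p of 0.834, 0.588 and 0.741.

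Rbbp7 was read by 1415775_at at 16072 without and 17917 with OHT in clone 3031, 16258 and 15486 in clone 3086, and 15321 and 17308 in clone 3087. Clone 3086 went the other way from clones 3031 and 3087. The difference was 0.088 ± 0.080 (95% interval -0.092 to 0.27), and that of 1456227_x_at was 0.051 ± 0.12.

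**Figure D3:**
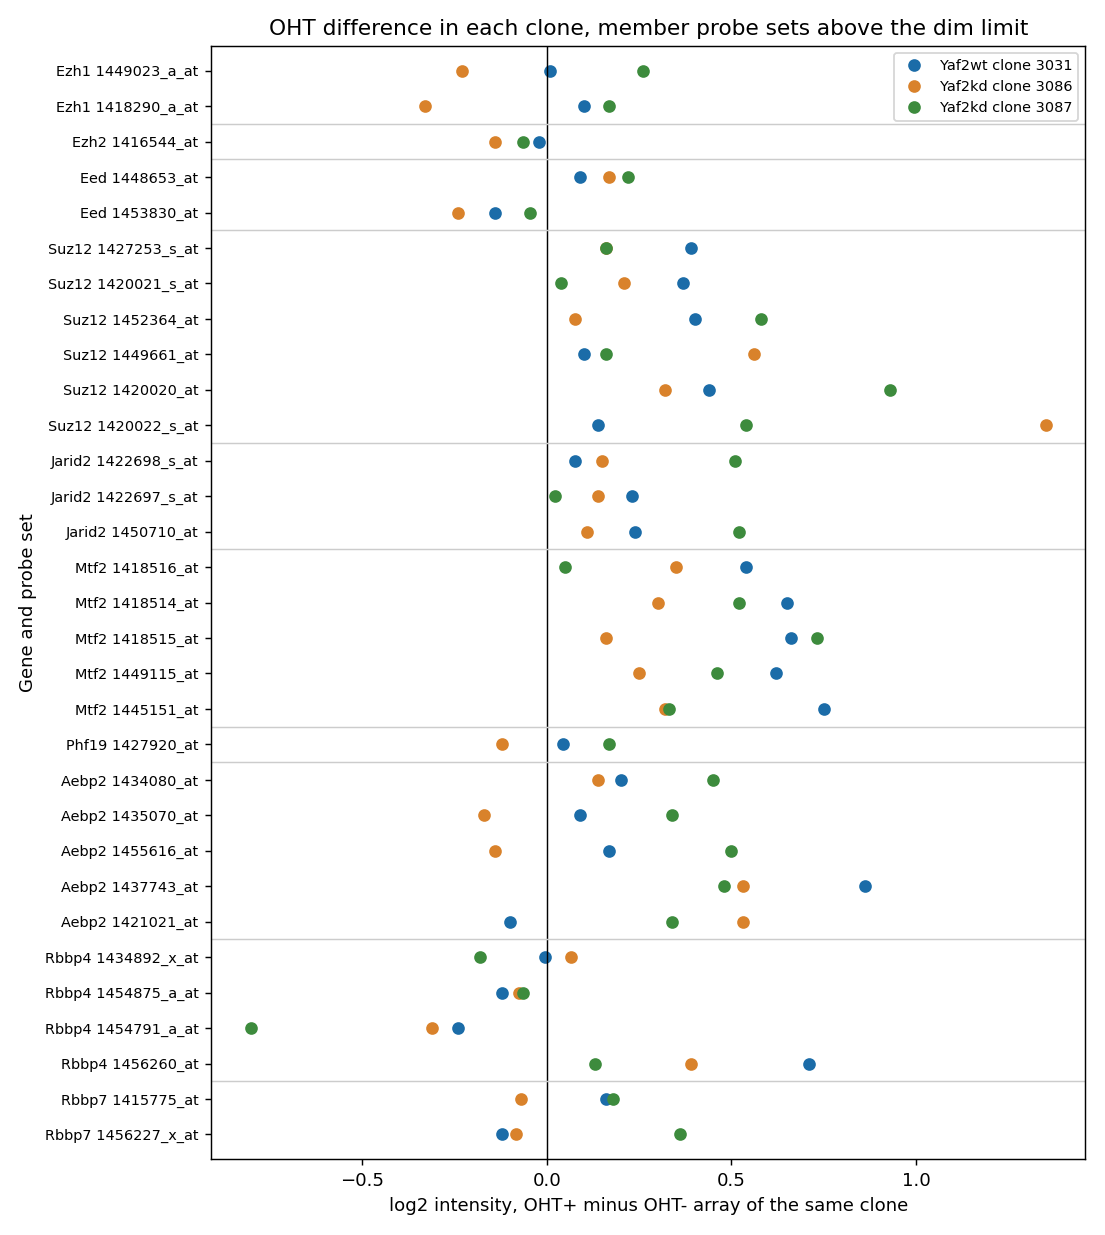
Log2 difference between the OHT+ and OHT- array of each clone for the 31 member probe sets above the dim limit, 1 point per clone, grouped by gene. All points of Suz12, Jarid2 and Mtf2 lie above 0, those of Ezh2 lie just below 0, and those of Ezh1, Rbbp4 and Rbbp7 fall on both sides.

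By Yaf2 status, limma called 0 of 45037 probe sets (0%), with 4032 (8.95%) at an unadjusted p under 0.05, so 0 members passed. The knocked-down gene did not pass either, with Yaf2 1429839_a_at at -1.52 ± 0.16 (limma adjusted p 0.163). A lack of calls here is thus no sign of equal levels. The comparison sets 4 Yaf2kd arrays of 2 clones against 2 arrays of 1 Yaf2wt clone, and arrays of a clone are not independent. At an unadjusted p under 0.05, 11 of the 31 member probe sets above the dim limit were lower in Yaf2kd and 0 were higher, against 6.18% and 5.3% of all probe sets above that limit. By gene, with the brightest probe set for each, 4 of 10 were lower (Suz12, Jarid2, Mtf2 and Aebp2), against 5.59% of genes above that limit. Both Yaf2wt arrays lay above all 4 Yaf2kd arrays for 4 of the 31 (12.9%), near the background of 10.6%. These were Suz12 1427253_s_at and 1420021_s_at, Jarid2 1422697_s_at and Aebp2 1455616_at. The first 3 were also higher with OHT in each clone, a joint pattern of 1.5% of probe sets above the limit. Marker sums differed by Yaf2 status as well: the fibroblast sum lay between 2321 and 2901 in Yaf2wt and between 2727 and 3916 in Yaf2kd arrays, and the embryonic stem cell sum between 109925 and 113919 against 105007 to 109881. By gene, 7 of 10 embryonic stem cell markers were lower in Yaf2kd, with a median of -0.14 and 0 passed, and 11 of 16 fibroblast markers were higher, with a median of 0.30. Their part in the PRC2 values was not tested.

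Suz12 had the lowest adjusted p of the members here. By 1427253_s_at it was at 5430 ± 1040 (SD, n = 2) in Yaf2wt and 3810 ± 251 (n = 4) in Yaf2kd arrays. Both groups mix OHT+ and OHT- arrays, and the Yaf2wt arrays are of clone 3031 alone, so these SDs are no replicate spread. Yaf2kd minus Yaf2wt was -0.50 ± 0.089 (95% interval -0.70 to -0.30, adjusted p 0.232), a 1.41-fold higher signal in Yaf2wt. The bright 1420021_s_at, at 4462 and 5775 in Yaf2wt and between 3335 and 3856 in Yaf2kd, differed by -0.53 ± 0.094 (adjusted p 0.232). The other 4 Suz12 probe sets were also lower on average in Yaf2kd, between -0.066 and -0.45. Without the Yaf2wt OHT+ or the Yaf2wt OHT- array the lowest adjusted p of any member was 0.999 and 0.923.

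Of the remaining members, Mtf2 1418516_at was at -0.36 ± 0.10 (adjusted p 0.386), Jarid2 1422698_s_at at -0.25 ± 0.10 (0.538) and Aebp2 1434080_at at -0.26 ± 0.097 (0.497) for Yaf2kd minus Yaf2wt. Their groups overlapped. Without the Yaf2wt OHT+ array the Mtf2 value was -0.19, and without the Yaf2wt OHT- array the Jarid2 value was -0.12 and that of Eed, -0.13 with all arrays, was -0.081. The other intervals of brightest probe sets held 0: those of Ezh2 ran from -0.17 to 0.19, of Eed from -0.33 to 0.06, of Rbbp4 from -0.25 to 0.16, of Ezh1 from -0.27 to 0.26, of Phf19 from -0.074 to 0.81 and of Rbbp7 from -0.27 to 0.11. Rbbp4 probe sets disagreed by Yaf2 status too. The less bright ones were at 0.13 ± 0.084 (1454875_a_at), 0.094 ± 0.19 (1454791_a_at) and -0.66 ± 0.27 (1456260_at, limma adjusted p 0.537). The median over the 10 genes was -0.11, and 0.034 over all genes above the dim limit. The OHT and Yaf2 values come from the same 6 arrays, so a gene high on Yaf2wt OHT+ enters both.

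**Figure D4:**
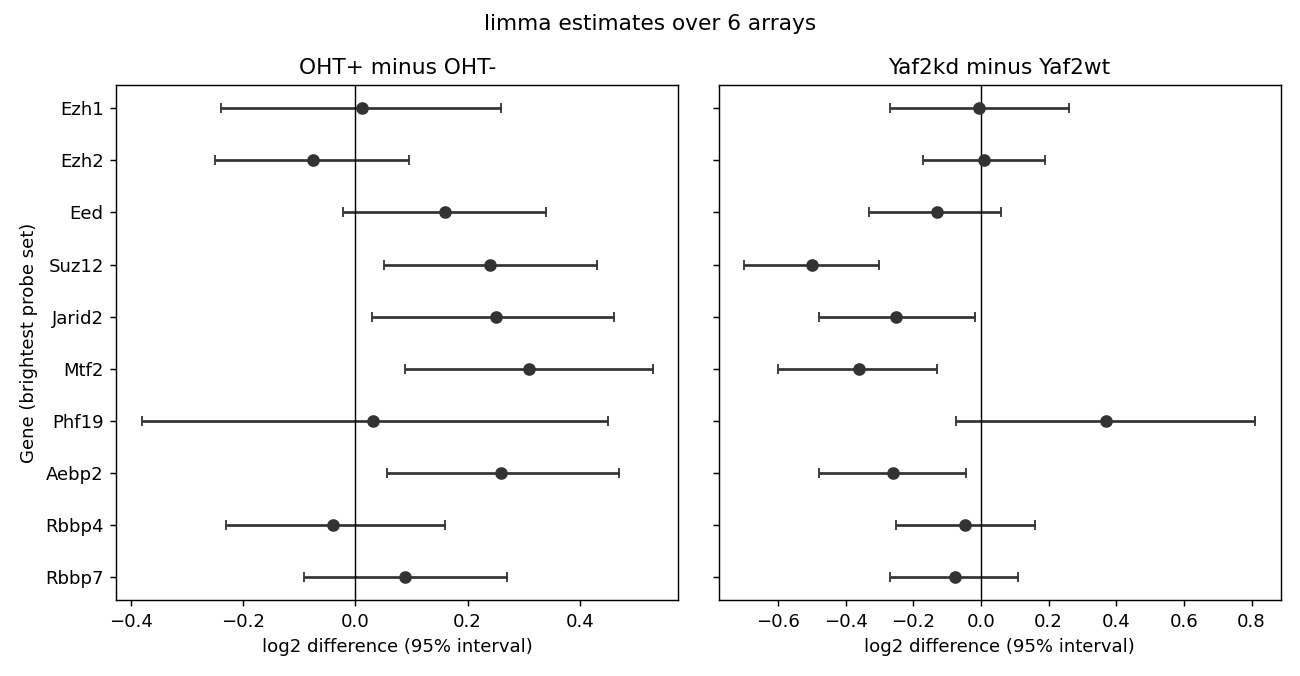
Limma estimates (points) with 95% intervals (bars) for the brightest probe set of each gene, for OHT+ minus OHT- (left) and Yaf2kd minus Yaf2wt (right), in log2. Suz12, Jarid2, Mtf2 and Aebp2 lie to the right of 0 on the left and to the left of 0 on the right, and none passed the adjustment.

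Whether the OHT difference depended on Yaf2 was tested as the OHT difference in Yaf2kd minus that in Yaf2wt. Limma called 0 of 45037 probe sets (0%, with 1077 or 2.39% at an unadjusted p under 0.05), and 0 of the 35 member probe sets reached that unadjusted level. Among all probe sets above the dim limit the share was 0.903%, so 0 among so few members is no result about PRC2. Mtf2 1418516_at was at -0.34 ± 0.21 (95% interval -0.81 to 0.14), with an OHT difference of 0.54 in clone 3031 against 0.35 and 0.051 in the Yaf2kd clones. Suz12 1427253_s_at was at -0.23 ± 0.19, with 0.39 against 0.16 and 0.16. The intervals are wide, and the spread comes from the Yaf2kd arrays alone.

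Other genes of the pathway, from lists made from general knowledge, gave few calls. Of the 6 other PRC2-associated genes 0 passed with OHT and 1 was higher, Epop, an accessory factor abundant in embryonic stem cells (0.47 ± 0.12, adjusted p 0.299, higher in 3 of 3 clones). Of 7 measured demethylase and CBX reader genes of the same histone mark 0 passed and 6 were lower, with Uty at -0.32 ± 0.29. Of 19 PRC1 genes 0 passed, 6 were higher and 13 lower, with the largest difference in Phc2 (0.63 ± 0.11, adjusted p 0.0889). Of 18 measured genes of other complexes that hold Rbbp4 or Rbbp7, 0 passed and 12 were lower, with the remodelling ATPase gene Smarca1 at -0.75 ± 0.24 (adjusted p 0.45).

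The 46 measured PRC2-target developmental regulators gave 1 call. Bmp4, a signalling ligand, rose with OHT by 1.43 ± 0.18 (log2, limma adjusted p 0.0193), from a mean of 142 to 382. In all 22 were higher and 24 lower, and only 22 of the 46 were above the dim limit, with a median of -0.037 for those. The medians over members above the dim limit were -0.10 for the other PRC2-associated genes, -0.068 for demethylases and readers, -0.039 for PRC1 genes and -0.086 for genes of the shared complexes, beside 0.12 for the PRC2 members. Among the marker lists, the medians above the dim limit were 0.16 for embryonic stem cell markers, 0.34 for feeder fibroblast markers and 0.039 for proliferation genes, so a positive median was not particular to PRC2.

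By Yaf2 status 0 genes of these lists passed. The largest differences were Epop at -0.30 ± 0.13, the CBX reader Cbx7 at -0.54 ± 0.20, the PRC1 gene Phc1 at -0.44 ± 0.12, the remodelling gene Bptf at -0.30 ± 0.11 and the dim neural regulator Nkx2-2 at 3.02 ± 0.85, with adjusted p of 0.538, 0.497, 0.366, 0.473 and 0.376.

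**Figure D5:**
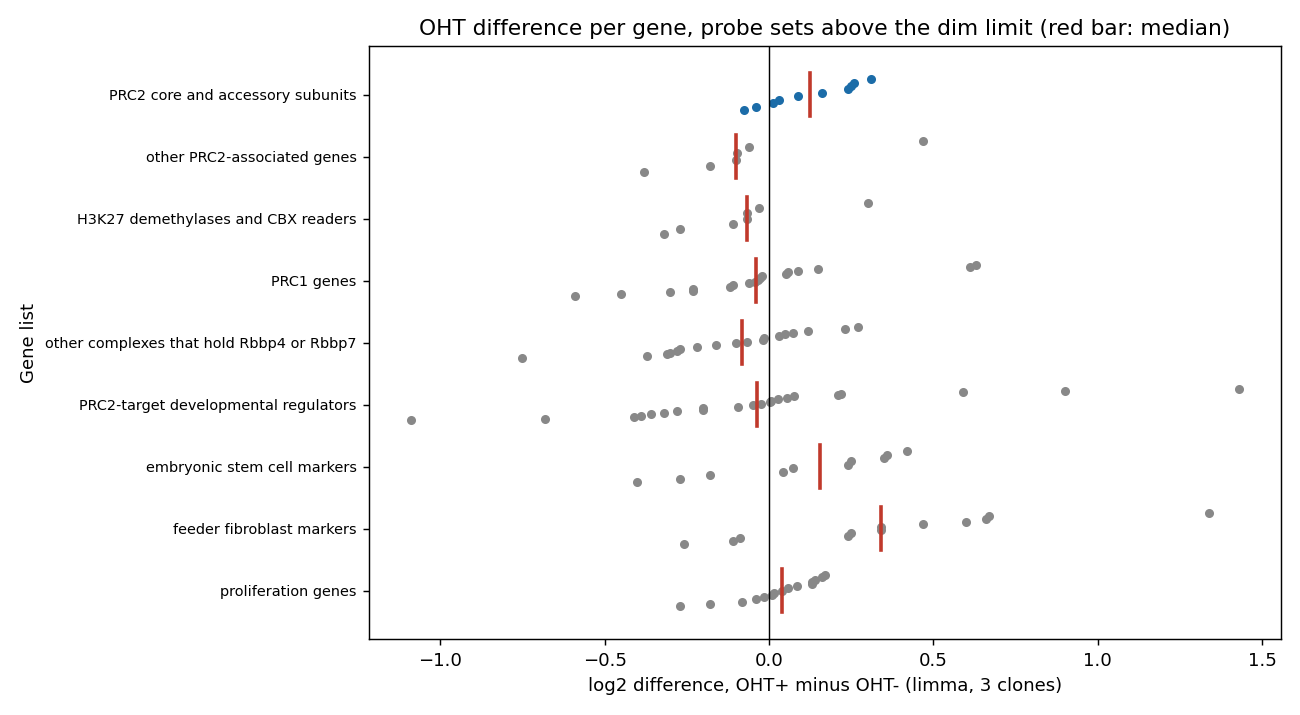
OHT difference (log2, limma over 3 clones) of each gene above the dim limit by its brightest probe set, 1 point per gene, in the PRC2 members (blue) and the other lists (grey), with red bars for medians. By these probe sets the PRC2 members run from -0.076 (Ezh2) to 0.31 (Mtf2), and among the target genes Bmp4 reaches 1.43. Less bright member probe sets above the dim limit, not drawn here, run from -0.45 (Rbbp4 1454791_a_at) to 0.68 (Suz12 1420022_s_at).

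The genes most like Ezh2 across the 6 arrays, by the root mean square difference of centred log2 values among 12449 bright genes that vary at least as much, were Numa1 (0.0193), Prr14l (0.0283) and Septin2 (0.0284). For Jarid2, among 6343 such genes, they were Gm15050 (0.0423), Uri1 (0.0488) and Man2a2 (0.0516).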

How the data were processed

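RNA of 6 embryonic stem cell samples was labelled with biotin and hybridised to Affymetrix mouse arrays. The deposited values are probe-set intensity; Affymetrix Expression Console and RMA are named, without role or version, per the submitters' processing notes. They are linear (0.14 to 45795, median 102) and, once sorted, identical on all arrays, which is what quantile normalisation by the authors leaves; a shift common to most genes would not show. The log2 was taken with no pseudocount. Probe sets were named from the platform's annotation, with 99.4% of the 34945 with 1 symbol matched to GRCm38.p6 gene identifiers, used for names and promoter sequences; 932 had several symbols and 9160 none. The text's array name, 430A 2.0, differs from the 45101 probe sets in the table. Of these, 64 controls were left out.

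Each probe set was fitted with limma 3.58.1 in R 4.3.3 (lmFit, eBayes with an intensity trend, since replicate SD was 0.89 for dim and 0.21 for other probe sets, log2), Benjamini-Hochberg adjusted over 45037, threshold 0.05. A model of Yaf2 status and OHT had 3 residual degrees of freedom, and the 4-group model 2. The script was tested on simulated data. The clone pairs the arrays, from the labels. Residuals of its arrays in the first model correlated at 0.08 (clone 3086) and -0.018 (clone 3087). Those of the Yaf2kd arrays in the 4-group model correlated at 0.13. These values do not show that arrays of a clone are independent. Named were the brightest probe set of each member, others above the dim limit that disagreed in sign, of each list the calls or else the largest difference, and for Ezh2 and Jarid2 the 3 most similar genes. Members and lists were chosen with earlier results of these data known. The p-values reflect only the scatter among these 6 arrays, which may be partly technical. Alternatives are in the closing section.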

Additional observations from a re-analysis of the deposited data

Results flagged for a closer look

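Some probe sets had an OHT difference of one sign in clone 3031 and the other sign in both Yaf2kd clones; in the limma test of that difference 0 passed, with an adjusted p of 1. Yaf2kd minus Yaf2wt of the OHT difference was 0.54 for Aebp2 1421021_at (-0.10 against 0.53 and 0.34), -0.71 for the dim Phf19 1431857_at (0.14 against -0.77 and -0.38) and -0.81 for the dim Mtf2 1459811_at (0.20 against -0.81 and -0.42). For the Yaf2 probe sets it was 0.14 for 1423399_a_at and 0.21 for 1429839_a_at.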

How the results depend on the processing

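The 63 calls over all probe sets with OHT became 0 without an intensity trend (limma), 101 with the clone as a replicate block, 14 to 53 when 1 array was left out, and 18, 205 and 293 without clone 3031, 3086 and 3087. The fits without clone 3086 or 3087 had 1 residual degree of freedom, and the cause was not tested. The other alternatives gave 57 to 90. Member probe sets that passed with OHT were 0 under every alternative except leaving out a clone, where they ranged from 0 to 4. By Yaf2 status the calls were 0 except for 8 without the first Yaf2kd OHT- array (range 0 to 8), none of them a member, and the difference of the OHT effects gave 0 throughout. The replicate block changed no other call. Taking 1 probe set per gene reduced the 18 member probe sets higher in each clone to 5 and the 4 with Yaf2wt above Yaf2kd to 1, since 10 were then counted. Of 345 alternative values for 26 single results 330 kept direction and call, 3 Mtf2 values passed as given in the report, and 12 turned sign, all near 0. With OHT these were Ezh1 (-0.067, -0.05 and -0.11), Phf19 (-0.019 and -0.036) and Rbbp4 (0.041 and 0.031), the last value of each without clone 3087 and the others without 1 array; leaving out 1 array gave at most 0.09 for Ezh1 and 0.085 for Phf19. By Yaf2 status they were Ezh1 (0.051 and 0.039), Ezh2 (-0.033 and -0.02) and Rbbp4 (0.0063), all with 1 array left out, where Ezh1 went down to -0.066 and Ezh2 up to 0.049. Differences under the replicate spread cannot be seen with 6 arrays, least of all for dim probe sets. Leaving out a Yaf2wt array gave no value for the difference of the OHT effects.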
